A study of Mus musculus with 12 samples.

Results

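The genes described here are the nucleotide excision repair, crosslink repair and other DNA repair genes of the mouse kidney, read out after a single dose of cisplatin with and without dichloroacetate (DCA). They were chosen by symbol, with earlier results of these data known, as a list of 44 repair and damage-signalling genes. These were matched by Ensembl identifier to a table of raw read counts. Of these, 43 were matched among the table's 28991 identifiers, and Fanca was not analysed here. All 43 passed the filter on low counts.

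RNA-seq was made from the whole kidney of 12 BALB/c males, 8 weeks old, in 4 groups of 3 mice, with all agents given by intraperitoneal injection. Saline mice received saline for 6 days, and DCA mice received 250 mg/kg DCA daily for 6 days. Cisplatin mice received saline for 5 days and then 20 mg/kg cisplatin once. Combination mice received 250 mg/kg DCA for 5 days and then 20 mg/kg cisplatin together with DCA. Both cisplatin-treated groups were killed 24 h after cisplatin. Total counts per library ran from 38236592 to 55832441 in saline, from 41525403 to 62237514 in DCA, from 29614283 to 35925471 in cisplatin and from 29505929 to 35082408 in combination kidneys. Levels are given in CPM, the read count relative to the scaled library size in megareads. Changes are log2 fold changes from edgeR's quasi-likelihood test with their standard error (SE), and a gene was called at a Benjamini-Hochberg adjusted p below 0.05 over all 20370 genes tested.

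Cisplatin forms platinum adducts on DNA, mostly crosslinks within a strand and less often between strands. Nucleotide excision repair recognises the distorted helix, opens it and cuts out the damaged stretch, while the Fanconi anaemia pathway and homologous recombination deal with crosslinks between strands, and translesion polymerases copy past lesions that remain. Base excision repair, mismatch repair and direct reversal act on other kinds of damage to bases, and the checkpoint kinases signal that damage is present.

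Cisplatin raised some repair genes and lowered others. Of the 43 genes, 17 rose and 11 fell in cisplatin against saline kidneys, while 15 were not called. Across all genes tested, 60.1% were called in this comparison, 29.7% as higher and 30.4% as lower, so the 65.1% called among the repair genes lay near the background. With a log2 change of at least 1 also required, 7 repair genes were higher (Ercc5, Ercc1, Polk, Mad2l2, Brca1, Msh6 and Apex1) and 4 were lower (Fancc, Fancd2, Atm and Mgmt), against 6.09% and 9.66% of all genes. The median log2 change was 0.14 over the repair genes and -0.01 over all genes tested. Scaling by library totals alone placed the median of all genes at 0.27 and the repair genes at 27 higher and 5 lower. It called 13345 of all genes, 73.1% of them as higher. In whole tissue, fewer cells of a type and less RNA per cell cannot be told apart: all 7 markers of the proximal tubule, the main site of cisplatin injury, fell in the same comparison, and their summed level went from 8730 to 9833 CPM in saline to 2713 to 3154 CPM in cisplatin kidneys. In combination kidneys it was 4735 to 5223 CPM. Markers of other kidney cells were lower with cisplatin too, with 4 of 5 called for the distal tubule and collecting duct, 3 of 4 for the endothelium and 2 of 3 for podocytes. The part of these shifts in the changes of the repair genes was not tested.

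Per length of transcript, the most abundant of the genes in saline kidneys was Ddb1, the adaptor of the ultraviolet damage sensor and of a ubiquitin ligase, at a mean of 40.8 RPKM, which is CPM divided by the exon length in kilobases. Rad23b, the partner of the lesion sensor Xpc, followed at 17.8 RPKM and the abasic-site nuclease Apex1 at 13.8 RPKM. The lowest were Brca1 at 0.077 RPKM and Fancd2 at 0.117 RPKM. In all, 12 genes lay at 5 RPKM or more, 18 between 1 and 5 RPKM and 13 below 1 RPKM.

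**Figure D1:**
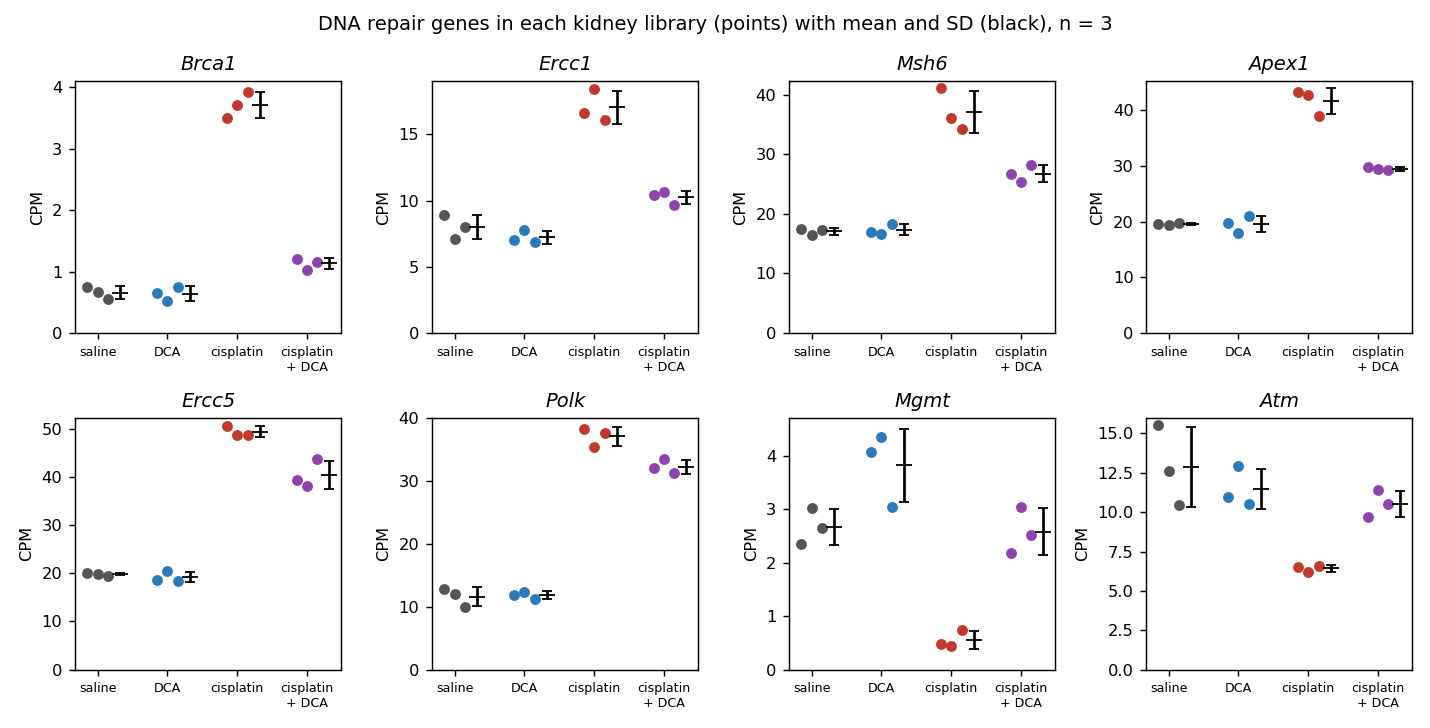
CPM (vertical axes, from 0) of 8 DNA repair genes in each kidney library (points) of the 4 groups, with the mean and SD of 3 mice in black. Brca1, Ercc1, Msh6 and Apex1 are highest in the 3 cisplatin libraries and lie between saline and cisplatin in the combination libraries, while Ercc5 and Polk stay well above saline in both and Mgmt and Atm are lowest in the cisplatin libraries.

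Among the 10 genes that recognise the lesion and cut the strand in nucleotide excision repair, 6 rose and 2 fell with cisplatin. Of all genes tested 29.7% rose and 30.4% fell. The 3′ nuclease Ercc5 and Ercc1, 1 subunit of the 5′ nuclease, were among the genes that rose. Ercc5 (chr1:44147744-44181260, GRCm38), the XPG nuclease that cuts 3′ of the lesion, was counted at 20.0, 19.8 and 19.5 CPM in saline, 18.7, 20.5 and 18.5 CPM in DCA, 50.6, 48.7 and 48.7 CPM in cisplatin and 39.2, 38.1 and 43.6 CPM in combination kidneys. All cisplatin libraries lay above all combination libraries, and both groups lay above saline and DCA with no overlap. Its change with cisplatin was 1.32 ± 0.058 (log2, SE), a 2.49-fold rise (adjusted p = 6.3e-10). In combination against cisplatin kidneys it was lower by a log2 change of -0.29 ± 0.056 (adjusted p = 0.0014).

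Ercc1 (chr7:19344778-19356524), which with Ercc4 forms the nuclease that cuts 5′ of the lesion and also acts in crosslink repair, stood at 8.88, 7.08 and 8.02 CPM in saline, 6.99, 7.81 and 6.87 CPM in DCA, 16.6, 18.4 and 16.1 CPM in cisplatin and 10.4, 10.7 and 9.66 CPM in combination kidneys. The combination libraries fell between the other cisplatin-treated kidneys and the untreated ones, overlapping neither. Ercc1 rose 2.13-fold with cisplatin (log2 1.09 ± 0.094, adjusted p = 3.4e-07) and was 0.602-fold its cisplatin level in the combination (log2 -0.73 ± 0.094, adjusted p = 7.4e-05). Its partner Ercc4 was not called, with a log2 change of 0.14 and a 95% interval from -0.02 to 0.31. The helicases of the repair and transcription factor TFIIH rose less, Ercc3 by a log2 change of 0.44 ± 0.052 (adjusted p = 8.3e-06) and Ercc2 by 0.30 ± 0.057 (adjusted p = 0.00043). Exons of Gm26852 cover 24.6% and exons of Klc3 17.8% of the exon length of Ercc2, and Klc3 rose by 0.30 (adjusted p = 0.004), so the size of the Ercc2 change is uncertain.

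The damage sensors did not move together. Rad23b was counted at 99.3, 101.7 and 105.0 CPM in saline, 110.9, 103.5 and 109.2 CPM in DCA, 132.9, 131.1 and 131.1 CPM in cisplatin and 109.6, 116.1 and 117.9 CPM in combination kidneys. The cisplatin libraries were the highest, and the combination libraries overlapped those of DCA. Rad23b rose by a log2 change of 0.37 ± 0.050 with cisplatin (adjusted p = 2.5e-05) and was lower by -0.20 ± 0.050 in the combination than in cisplatin (adjusted p = 0.0074). Ddb1 rose by 0.27 ± 0.057 (adjusted p = 0.0012), whereas its partner Ddb2, the ultraviolet damage-binding subunit, fell.

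Ddb2 levels were 21.2, 20.7 and 18.2 CPM in saline, 17.7, 19.6 and 17.4 CPM in DCA, 15.9, 14.3 and 16.3 CPM in cisplatin and 17.8, 18.4 and 17.5 CPM in combination kidneys. Cisplatin libraries were lowest, without overlap with any other group. The change with cisplatin was -0.37 ± 0.076 (log2, adjusted p = 8e-04). Ddb2 shares 23.8% of its exon length with exons of Acp2, a lysosomal phosphatase gene that changed by -0.22 on the log2 scale, and the library kit named in the labels does not mark strand, so reads of the shared stretch cannot be told apart. With library totals as the only scaling the change of Ddb2 was -0.10 and not called. Xpa, the scaffold that verifies the lesion, also fell (log2 -0.29 ± 0.070, adjusted p = 0.0027), but not under that scaling (-0.015), and the sensor Xpc was not called (log2 0.07, 95% interval from -0.04 to 0.18). Ercc6 and Ercc8, which start repair at stalled RNA polymerase, were not called either, with log2 changes of 0.15 and -0.09.

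Of 6 genes of translesion synthesis, 3 rose with cisplatin and none fell, where 29.7% of all genes rose and 30.4% fell. Polk (chr13:96480690-96542579), a Y-family polymerase that copies past bulky adducts, was at 12.8, 11.97 and 9.95 CPM in saline, 11.9, 12.4 and 11.2 CPM in DCA, 38.3, 35.3 and 37.6 CPM in cisplatin and 32.1, 33.4 and 31.2 CPM in combination kidneys. Cisplatin libraries exceeded combination libraries, and both stood far above saline and DCA. The rise with cisplatin was 3.19-fold (log2 1.67 ± 0.080, adjusted p = 1.3e-09), and the combination was not called against cisplatin (log2 -0.20).

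Mad2l2 (REV7), the accessory subunit of polymerase zeta, was counted at 13.8, 13.5 and 13.2 CPM in saline, 13.1, 15.1 and 14.5 CPM in DCA, 28.6, 29.5 and 29.0 CPM in cisplatin and 23.4, 24.6 and 26.8 CPM in combination kidneys. The order of the groups was that of Polk, again with no overlap between cisplatin and combination. It rose 2.15-fold with cisplatin (log2 1.10 ± 0.067, adjusted p = 1.2e-08) and was lower in the combination than in cisplatin by -0.22 ± 0.065 (adjusted p = 0.02). The second call was lost without cisplatin replicate 2, combination replicate 1 or combination replicate 2, with values over all alternatives from -0.349 to -0.175 and adjusted p up to 0.094. Rev1, the scaffold that recruits the other translesion polymerases, rose by 0.71 ± 0.061 (adjusted p = 3.6e-07), although 26.6% of its exon length overlaps exons of Eif5b, which changed by 0.43. The catalytic subunit of polymerase zeta, Rev3l (log2 -0.18), polymerase eta, Polh (0.21), and the ubiquitin ligase Rad18 (0.12) were not called.

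Of the 6 listed Fanconi anaemia genes analysed, 4 fell and 1 rose with cisplatin, where 30.4% of all genes fell and 29.7% rose. The median log2 change of the 6 was -0.55. Among 15 further genes of the pathway 9 rose and 1 fell, and the difference between these sets was not tested. Fancd2 (chr6:113531682-113597017), the protein whose ubiquitination marks a crosslink for repair, was low throughout, at 1.15, 0.978 and 0.661 CPM in saline, 1.35, 0.995 and 1.16 CPM in DCA, 0.114, 0.208 and 0.325 CPM in cisplatin and 0.260, 0.299 and 0.335 CPM in combination kidneys. Cisplatin and combination libraries overlapped each other and lay below all saline and DCA libraries. The change with cisplatin was -2.09 ± 0.321 (log2, adjusted p = 7.8e-05), from 4, 7 and 13 reads against 52, 51 and 23 in saline. The difference between combination and cisplatin was not called, with an interval from -0.42 to 1.29 on the log2 scale. Fancd2os, which overlaps 3.24% of its exon length, changed by -2.54 in the same comparison (adjusted p = 1.7e-07).

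Fancc (chr13:63285043-63497278), a core complex subunit, had 3.41, 3.47 and 4.40 CPM in saline, 4.25, 4.03 and 3.69 CPM in DCA, 1.93, 1.87 and 1.58 CPM in cisplatin and 1.85, 2.58 and 1.55 CPM in combination kidneys. Both cisplatin-treated groups were low and overlapped. Fancc fell by 1.06 on the log2 scale (SE 0.173, adjusted p = 0.00013) with cisplatin alone and by 0.99 (SE 0.171, adjusted p = 0.00045) in the combination against DCA. Fancl, the ubiquitin ligase of the core complex, behaved differently under DCA, with 10.9, 12.6 and 12.4 CPM in saline, 11.4, 11.4 and 11.4 CPM in DCA, 6.08, 7.58 and 8.30 CPM in cisplatin and 10.7, 11.1 and 9.66 CPM in combination kidneys. Its combination libraries overlapped saline and exceeded all cisplatin libraries. Fancl fell with cisplatin (log2 -0.71 ± 0.106, adjusted p = 6.2e-05) and was higher in the combination than in cisplatin by 0.52 ± 0.108 (adjusted p = 0.0025). Exons of Vrk2 overlap 13.7% of its exon length, and Vrk2 changed by -0.36 (adjusted p = 0.031) and 0.34 (adjusted p = 0.073) in these comparisons.

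Fancm, a translocase that brings the core complex to DNA, fell by 0.39 (SE 0.103, adjusted p = 0.0051) but was not called with library totals as the only scaling (-0.115), and Fanci, the partner of Fancd2, was not called (log2 0.14). Slx4, the scaffold of structure-specific nucleases, was the 1 gene of this role that rose. It stood at 43.2, 40.2 and 43.0 CPM in saline, 42.4, 44.2 and 43.8 CPM in DCA, 46.6, 49.8 and 48.9 CPM in cisplatin and 58.0, 53.7 and 58.2 CPM in combination kidneys. The combination libraries were the highest, above all cisplatin libraries. Slx4 rose by 0.20 ± 0.050 with cisplatin (adjusted p = 0.0036), and the combination exceeded cisplatin by 0.23 ± 0.050 (adjusted p = 0.0039). With library totals as the only scaling this second difference was 0.098 and not called.

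In homologous recombination Brca1 rose while Brca2 and Rad51c fell, and Palb2, the bridge between the BRCA proteins, was not called (log2 -0.20). Brca1 (chr11:101488764-101551955), a ubiquitin ligase subunit that promotes resection of broken ends, was counted at 0.753, 0.671 and 0.546 CPM in saline, 0.647, 0.522 and 0.755 CPM in DCA, 3.49, 3.72 and 3.93 CPM in cisplatin and 1.20, 1.03 and 1.16 CPM in combination kidneys. Every cisplatin library was above every combination library, and every combination library above the saline and DCA libraries. The rise with cisplatin was 5.58-fold (log2 2.48 ± 0.164, adjusted p = 2.6e-08), resting on 123, 125 and 157 reads against 34, 35 and 19 in saline. The combination held 0.304-fold the cisplatin level (log2 -1.72 ± 0.158, adjusted p = 8e-06) and remained 1.7-fold above saline (adjusted p = 0.0048).

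Brca1 is expressed in dividing cells in many tissues. Of 12 markers of cycling cells, 11 were tested: 3 were called higher and 1 lower in cisplatin against saline kidneys, and their summed level was 16.42 to 18.14 CPM in saline, 16.26 to 22.52 CPM in DCA, 20.05 to 21.45 CPM in cisplatin and 17.55 to 18.76 CPM in combination kidneys. Most of the difference in the sum between saline and cisplatin came from Ccna2, with means of 6.57 and 10.26 CPM, and Mki67 was the marker that fell (log2 -1.13, adjusted p = 0.002). No marker of the list had a group mean of 0, and the part of cycling cells in the Brca1 rise was not tested. Brca2, a recombination mediator, fell by 0.55 (SE 0.192, adjusted p = 0.023), and the recombination gene Rad51c fell by 0.28 (SE 0.092, adjusted p = 0.018). Both of these calls were lost in 7 of 21 alternative settings.

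Upstream sequences are shown for the genes with the largest called differences between combination and cisplatin kidneys, since their levels moved furthest between those groups. Each is the part of the 250 bases before the RefSeq start (GRCm38.p6) that holds no annotated exon, 5′ to 3′ on the gene's strand, with capitals marking matches to the searched motifs. The window of Ercc1 lies within an exon and is not printed. The Brca1 stretch is chr11:101551956-101552148 on the minus strand, the Mgmt stretch chr7:136894336-136894585 on the plus strand and the Atm stretch chr9:53536741-53536921 on the minus strand.
Brca1: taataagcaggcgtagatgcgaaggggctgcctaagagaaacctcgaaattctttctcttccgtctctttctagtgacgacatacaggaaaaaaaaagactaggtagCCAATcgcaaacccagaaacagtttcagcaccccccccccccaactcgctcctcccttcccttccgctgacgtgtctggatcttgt
Mgmt: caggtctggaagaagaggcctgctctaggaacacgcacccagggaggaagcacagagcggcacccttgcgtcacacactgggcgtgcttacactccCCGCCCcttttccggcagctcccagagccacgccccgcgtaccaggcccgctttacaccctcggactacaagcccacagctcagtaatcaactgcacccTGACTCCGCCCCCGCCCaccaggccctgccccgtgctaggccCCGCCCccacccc
Atm: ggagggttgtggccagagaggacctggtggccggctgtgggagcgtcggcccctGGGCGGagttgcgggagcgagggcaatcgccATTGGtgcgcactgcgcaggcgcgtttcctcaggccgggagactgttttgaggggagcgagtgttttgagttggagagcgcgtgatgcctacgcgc
The Brca1 stretch of 193 bases has 50.3% G and C with 9 CpG sites and holds a CCAAT box (CCAAT). The Mgmt stretch of 250 bases has 67.2% and 15 CpG sites, with GC boxes (GGGCGG) and a match to the antioxidant response element (TGACNNNGC) that overlaps one of them. The Atm stretch of 181 bases has 66.9% and 17 CpG sites, with a CCAAT box and a GC box.

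Motifs were searched on both strands in the 250 bases upstream of 32851 RefSeq starts, of which 42 belong to 37 of the repair genes. A CCAAT box was in 19 of the 42 windows against 33.8% of all windows, and a GC box in 26 against 32.7%. The cyclic AMP response element (TGACGTCA) was in 3 of 42 windows, those of Brca2, Rad51c and Tdg, against 1.55% of all. The E-box CACGTG was in 7 windows against 6.02%, and the antioxidant response element in 5 against 10.2%. The AP-1 site (TGANTCA, in 6.75% of all windows) and the E2F sites TTTCGCGC (0.256%) and TTTGGCGC (0.417%) were in none of the 42. A match to the p53 decamer, which is only a part of a full p53 site, was in 1 window, against 7.13% of all. That window belongs to a start inside the Polk gene, and the window at the Polk gene start held only a GC box. An NRF1 site was in 1 window, of Polh, against 0.782%.

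Many repair genes start head to head with a neighbour, and 13 had a tested gene on the other strand starting within 1000 bases. For 7 of these 13 the repair gene was called with cisplatin, where 60.1% of all genes were called, 29.7% as higher and 30.4% as lower. Among the 7, the neighbour was called in the same direction for 1, Rad51c, and in the opposite direction for 1, Polk. Nbr1, an autophagy receptor gene that starts 194 bases from Brca1, changed by -0.09 with cisplatin (adjusted p = 0.22), beside the 5.58-fold rise of Brca1. Npat, 307 bases from Atm, changed by 0.11 (adjusted p = 0.34). Col4a3bp, 39 bases from Polk, fell by 0.36 (adjusted p = 0.00044) where Polk rose by 1.67. In combination against cisplatin kidneys Hscb, 202 bases from Chek2, was higher by 0.45 (adjusted p = 0.0011), in the same direction as Chek2.

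In mismatch repair Msh6 (chr17:87975062-87990892), a subunit of the sensor of mispaired bases, was at 17.4, 16.4 and 17.3 CPM in saline, 17.0, 16.6 and 18.4 CPM in DCA, 41.1, 36.0 and 34.3 CPM in cisplatin and 26.8, 25.3 and 28.2 CPM in combination kidneys. The combination libraries again lay between untreated and cisplatin libraries with no overlap. Msh6 rose 2.18-fold with cisplatin (log2 1.12 ± 0.072, adjusted p = 2e-08) and was lower in the combination than in cisplatin by -0.47 ± 0.071 (adjusted p = 0.00025). Pms2, a subunit of the nuclease that follows, was not called (log2 -0.01, interval from -0.22 to 0.21).

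Rrm2b, the p53-induced ribonucleotide reductase subunit that supplies deoxynucleotides outside S phase, stood at 32.8, 32.6 and 32.6 CPM in saline, 36.0, 37.1 and 35.3 CPM in DCA, 31.9, 30.6 and 28.7 CPM in cisplatin and 27.6, 29.7 and 27.4 CPM in combination kidneys. The DCA libraries were the highest and combination and cisplatin overlapped. Cisplatin against saline was not called (log2 -0.10, adjusted p = 0.09), while combination against DCA was lower by -0.35 ± 0.051 (adjusted p = 9.3e-05).

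Of 5 damage-signalling genes, 1 fell and 4 were not called with cisplatin, where 60.1% of all genes were called. Atm (chr9:53439149-53536740), the kinase that responds to double-strand breaks, was counted at 15.5, 12.6 and 10.5 CPM in saline, 10.96, 12.9 and 10.5 CPM in DCA, 6.53, 6.18 and 6.60 CPM in cisplatin and 9.72, 11.4 and 10.5 CPM in combination kidneys. The cisplatin libraries were lowest and stood apart, while the combination libraries overlapped saline and DCA. Atm fell by 1.00 with cisplatin (SE 0.130, adjusted p = 1.7e-05) and was 1.64-fold higher in the combination than in cisplatin (log2 0.71 ± 0.133, adjusted p = 0.0012).

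Leukocytes express Atm strongly. Of 12 leukocyte markers, 8 were tested, of which 1 rose and 2 fell with cisplatin, and the summed level of the list was 105.5 to 109.4 CPM in saline, 88.12 to 119 CPM in DCA, 71.85 to 79.98 CPM in cisplatin and 75.11 to 78.05 CPM in combination kidneys. Most of that sum and of its fall is the macrophage gene Csf1r, with means of 79.2 CPM in saline and 43.4 CPM in cisplatin kidneys. Ptprc had means of 5.99 and 4.63 CPM, Itgam 0.714 and 1.23 CPM and the neutrophil gene Ly6g 19.1 and 24.1 CPM. In saline kidneys Ly6g stood at 20.3 RPKM, against 0.327 RPKM for Ptprc and 0.142 RPKM for Itgam. Its reads may therefore not measure neutrophils. The list's median log2 change was 0.04. Cd3e, Cd3g, Ms4a1 and Nkg7 were under the filter on low counts, and no marker had a group mean of 0. The part of leukocytes in the Atm difference was not tested.

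Chek2, the checkpoint kinase downstream of Atm, had 3.72, 3.45 and 3.59 CPM in saline, 3.20, 3.73 and 3.32 CPM in DCA, 3.12, 3.24 and 3.63 CPM in cisplatin and 5.04, 3.97 and 5.76 CPM in combination kidneys. The combination libraries were the highest and the other groups overlapped. Chek2 was not called with cisplatin alone (log2 -0.10, interval from -0.40 to 0.19) and was higher in the combination than in cisplatin by 0.56 ± 0.134 (adjusted p = 0.0061). Chek1 (log2 0.35, interval from -0.08 to 0.78), Atr (0.09) and Trp53bp1 (0.00) were not called with cisplatin.

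Mgmt (chr7:136894614-137130266), the enzyme that removes alkyl groups from guanine, had the lowest log2 change with cisplatin of the 43 genes. It was counted at 2.35, 3.03 and 2.65 CPM in saline, 4.07, 4.35 and 3.05 CPM in DCA, 0.483, 0.446 and 0.750 CPM in cisplatin and 2.18, 3.04 and 2.53 CPM in combination kidneys. All cisplatin libraries were below 1 CPM, and the combination libraries overlapped saline and lay below those of DCA. Mgmt changed by -2.23 ± 0.228 with cisplatin (log2, adjusted p = 1.7e-06), from 17, 15 and 30 reads against 106, 158 and 92 in saline. It was 4.56-fold higher in the combination than in cisplatin (log2 2.19 ± 0.233, adjusted p = 2.2e-05). Combination against saline was not called (log2 -0.05), and combination against DCA was called at -0.56 ± 0.181 (adjusted p = 0.024), a call lost in 6 alternative settings.

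In base excision and single-strand break repair 5 of 6 genes rose with cisplatin and 1 fell. Of all genes tested 29.7% rose and 30.4% fell. Apex1 (chr14:50924968-50927139), which cuts at abasic sites, was at 19.5, 19.4 and 19.8 CPM in saline, 19.7, 18.0 and 21.0 CPM in DCA, 43.2, 42.7 and 39.0 CPM in cisplatin and 29.8, 29.4 and 29.2 CPM in combination kidneys. The combination libraries lay close together between the untreated and the cisplatin libraries. Apex1 rose 2.13-fold with cisplatin (log2 1.09 ± 0.059, adjusted p = 4.2e-09) and was lower by -0.50 ± 0.058 in the combination than in cisplatin (adjusted p = 4.1e-05). Exons of Pip4p1 on the other strand cover 61.7% of its exon length and Pip4p1 rose too (log2 0.57, adjusted p = 3.9e-07), so the size of the Apex1 change is uncertain.

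The uracil glycosylase Ung had 1.86, 1.55 and 1.52 CPM in saline, 1.54, 1.44 and 1.32 CPM in DCA, 2.30, 2.59 and 2.88 CPM in cisplatin and 2.18, 1.71 and 1.92 CPM in combination kidneys. Cisplatin libraries were the highest, without overlap. Ung rose by 0.65 ± 0.145 with cisplatin (adjusted p = 0.0016), and its lower level in the combination (-0.42 ± 0.147, adjusted p = 0.041) lost its call in 9 alternative settings. The oxidised-guanine glycosylase Ogg1 rose by 0.58 ± 0.073 (adjusted p = 1.2e-05), with 10.6% of its exon length shared with Camk1, which rose by 0.45 (adjusted p = 4.3e-06). So did the scaffold Xrcc1, by 0.25 ± 0.075 (adjusted p = 0.011). Tdg, the thymine glycosylase, rose by 0.17 ± 0.050 (adjusted p = 0.011), but shares sequence with the pseudogene Tdg-ps, which fell, so its value is uncertain.

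Parp1, the sensor of strand breaks, was at 42.0, 44.8 and 44.4 CPM in saline, 42.8, 43.6 and 47.5 CPM in DCA, 37.5, 35.5 and 37.7 CPM in cisplatin and 42.3, 42.6 and 44.4 CPM in combination kidneys. Only the cisplatin libraries were low, and the other groups overlapped. Parp1 changed by -0.24 ± 0.052 with cisplatin (adjusted p = 0.0011) and by 0.22 ± 0.052 in combination against cisplatin (adjusted p = 0.0053). With library totals as the only scaling these changes were 0.03 and 0.095, and neither was called.

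DCA alone called none of the 43 genes against saline, where 0.309% of all genes tested were called. At an unadjusted p below 0.05, 3 of the 43 passed in edgeR, where 11.9% of all genes did. The smallest adjusted p was 0.21, and DESeq2 also called 0. The log2 changes ran from -0.24 for Chek1 to 0.52 for Mgmt, and for 37 of 43 genes the 95% interval lay within 0.5 of no change. The 95% interval was from 0.14 to 0.90 for Mgmt and from 0.04 to 0.25 for Rrm2b, and neither passed the adjusted test. Rad51c, with a log2 change of 0.285, did not pass it either.

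The response to cisplatin under DCA was measured as combination against DCA, which shares no library with cisplatin against saline. Of the 43 genes 16 were higher and 5 lower, a share of 48.8% against 40.7% of all genes tested, of which 21.5% were higher and 19.2% lower. Scaling by library totals alone gave 27 and 3, and called 10683 of all genes, 79.2% of them as higher. Among the genes that rose, 14 were called in both arms, 82.4% of those called without DCA and 87.5% of those called with it. Across all genes these shares were 59.6% and 82.4%. Among the genes that fell, 4 were called in both arms (Fancc, Fancd2, Rad51c and Mgmt), 36.4% of the 11 called without DCA and 80% of the 5 called with it, against 56.1% and 88.9% of all genes. None of the 43 was called in opposite directions.

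Combination against cisplatin kidneys called 14 of the 43 genes, 32.6% against 31.6% of all genes tested, with 6 higher (Fancl, Slx4, Atm, Chek2, Mgmt and Parp1) and 8 lower (Rad23b, Ercc5, Ercc1, Mad2l2, Brca1, Msh6, Ung and Apex1). Of all genes 18.1% were higher and 13.5% lower. With a log2 change of at least 1 required, Mgmt and Brca1 remained, against 2.99% of all genes. Library totals as the only scaling moved the median of all genes from 0.015 to -0.112 and gave 4 higher and 17 lower. It called 7451 of all genes, 31.1% of them as higher. This comparison shares the cisplatin libraries with cisplatin against saline, and the values of both are given gene by gene above. Combination against saline kidneys called 15 genes as higher and 3 as lower, 41.9% against 40.2% of all genes, of which 20.6% were higher and 19.6% lower. Library totals alone gave 24 and 2, and called 9990 of all genes, 74.9% of them as higher. The 3 lower genes were Fancc (log2 -0.90), Fancd2 (-1.65) and Rrm2b (-0.21, or -0.06 and not called with library totals alone), and the highest values were those of Polk (1.47), Ercc5 (1.03) and Mad2l2 (0.88).

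**Figure D2:**
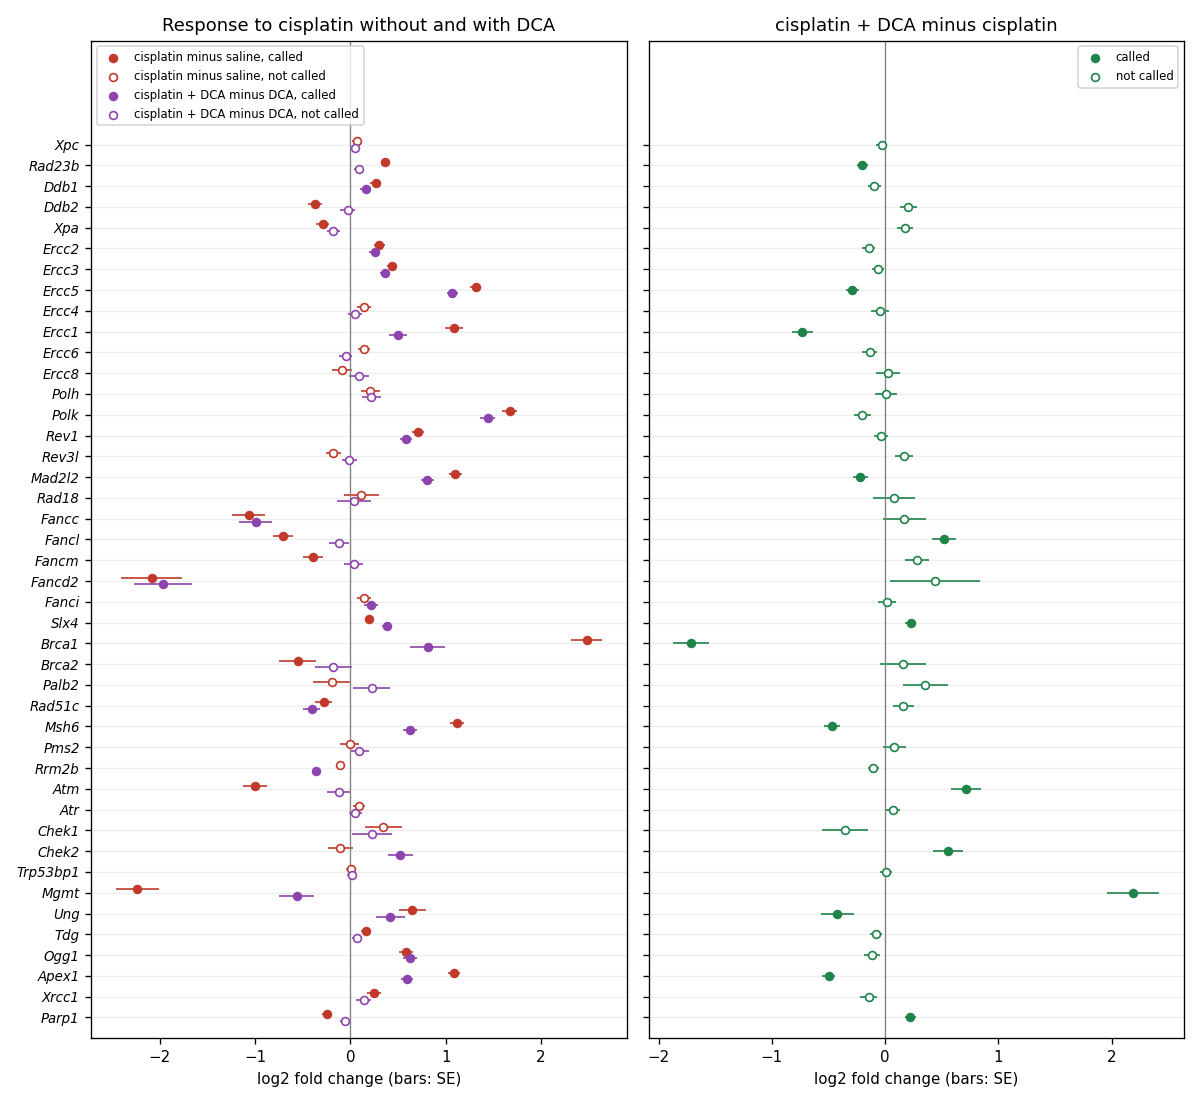
Log2 fold changes (horizontal axes, bars are SE) of the 43 repair genes by role, for cisplatin minus saline and cisplatin plus DCA minus DCA (left) and for cisplatin plus DCA minus cisplatin (right), with filled points for called genes. Brca1 goes from 2.48 without DCA to 0.81 with it and Mgmt from -2.23 to -0.56, while the positions of Polk, Fancc and Fancd2 differ by at most 0.23 between the arms.

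Whether the response to cisplatin differed with DCA was tested as the interaction of both treatments. It called 13 of the 43 genes, 30.2% against 18.6% of all genes tested, 5 with a positive difference of log2 changes (11.4% of all genes) and 8 with a negative one (7.15%). The list was made with earlier results of these data known, so its larger share is not a test of the list. The largest differences were those of Mgmt (1.67 ± 0.296, adjusted p = 0.0019) and Brca1 (-1.67 ± 0.249, adjusted p = 0.00068), followed by Atm (0.88 ± 0.182, adjusted p = 0.0047). Ercc1 (-0.59), Fancl (0.59), Apex1 (-0.50) and Msh6 (-0.49) were also called. Polk was not called, with a difference of -0.23, nor were Fancc (0.07) and Fancd2 (0.12). The count was 8 without saline replicate 2, without cisplatin replicate 2 or without combination replicate 1, and Ercc1, Brca1, Msh6, Atm, Mgmt and Apex1 kept their call in all alternative settings.

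Repair genes differ widely in genomic length, and in cisplatin kidneys the change of all genes varied with it. The median log2 change of all tested genes with cisplatin was 0.13 for 5469 genes spanning up to 5 kb and -0.97 for 538 genes spanning 200 to 400 kb. In combination against cisplatin kidneys the medians of these classes were -0.01 and 0.36. Of 7 repair genes spanning 5 to 20 kb, Ercc1 (11.7 kb), Mad2l2 (15.3 kb) and Msh6 (15.8 kb) among them, 6 rose and none fell with cisplatin, where 37.4% of all genes of that span rose and 23.8% fell. The repair genes of 200 to 400 kb were Fancc (212 kb) and Mgmt (236 kb), and both fell, as did 78.6% of all genes of that span. Fancc lay near its class median with -1.06, and Mgmt lay below it with -2.23. Brca1, Polk, Fancd2 and Atm, all between 50 and 100 kb, where the class median was -0.14, changed by 2.48, 1.67, -2.09 and -1.001. The part of gene length in the changes of single genes was not tested.

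**Figure D3:**
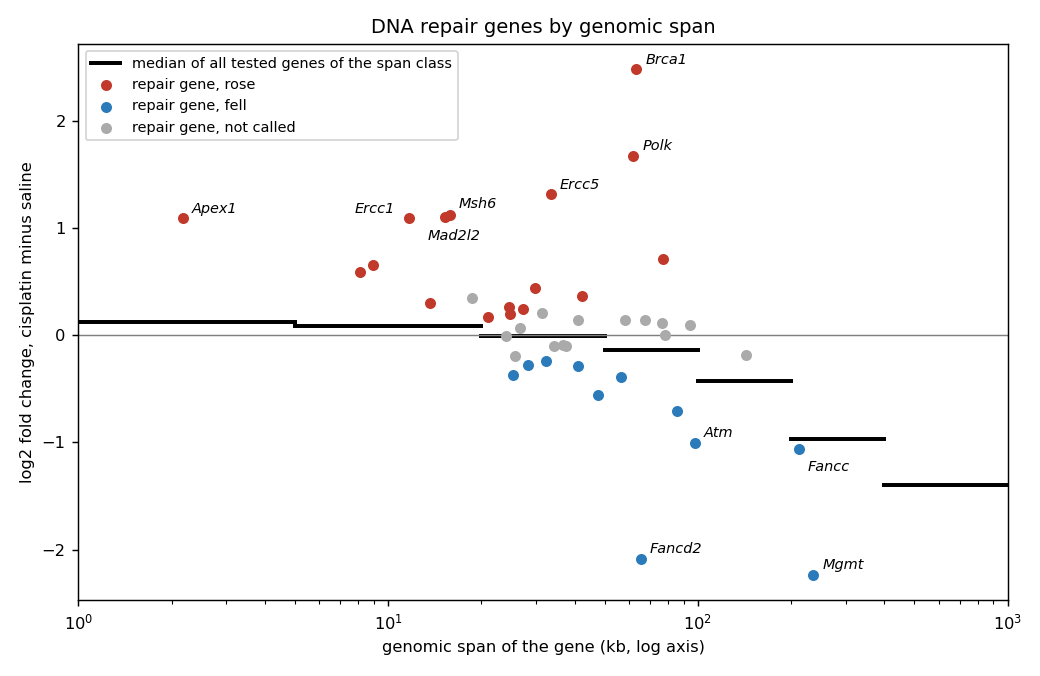
Log2 fold change of the repair genes, cisplatin minus saline (vertical axis), against the genomic span of the gene in kb (horizontal, log axis), with the median of all tested genes in each span class. Class medians go from 0.13 for genes up to 5 kb to -1.40 for genes over 400 kb, and Brca1 and Polk lie above the median of their class while Mgmt, Fancd2 and Atm lie below it.

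A further 110 repair genes outside the list gave 108 tested. With cisplatin 45 rose and 24 fell, 63.9% against 60.1% of all genes, with a median log2 change of 0.11. Of all genes 29.7% rose and 30.4% fell, and the counts by role below stand beside these shares. Among 10 genes of end joining, which ligates broken ends, 5 fell and 2 rose. The 4 with the largest changes were Polq, the polymerase of microhomology joining, at -2.82 ± 0.246, Xrcc4, a scaffold of the ligase, at -2.61 ± 0.163, its partner Nhej1 at -1.73 ± 0.189 and Prkdc, the DNA-dependent kinase, at -1.62 ± 0.082, and all 4 fell. All 4 were higher in the combination than in cisplatin, by 0.70 for Prkdc to 1.32 for Polq.

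Among the 15 further Fanconi genes Ube2t, the ubiquitin-conjugating enzyme that works with Fancl, had the largest change, at 1.68 ± 0.246. Its level was low, with means of 0.316 CPM in saline and 1.03 CPM in cisplatin kidneys. In homologous recombination 5 of 12 tested genes rose and 3 fell. Among those that fell was Bard1, the partner of Brca1, at -1.56 ± 0.281 (adjusted p = 3e-04), opposite in direction to Brca1. Bard1 had low means of 0.573 CPM in saline and 0.194 CPM in cisplatin kidneys. In mismatch repair 3 of 5 tested genes fell and none rose, with Msh3, a subunit of a sensor of mispaired loops, at -1.07 ± 0.111 (adjusted p = 2.1e-06). Msh3 was higher by 0.73 in the combination than in cisplatin, a comparison that uses the same cisplatin libraries by which Msh3 was picked. The further damage-signalling genes had 9 of 14 that rose, led by the kinase Wee1 (1.24 ± 0.158) and the histone gene H2afx (0.86 ± 0.101).

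Of 10 further translesion genes 6 rose and 1 fell, with the sliding clamp Pcna at 0.79 ± 0.064 and the deubiquitinase of FANCD2 and PCNA, Usp1, at 0.52 ± 0.061. Of 19 further base excision genes 6 rose and 3 fell, and Fen1, the flap nuclease, rose by 0.74 ± 0.130 while Mbd4, a glycosylase for mispaired thymine, fell by 0.87 (SE 0.096). Of 19 further nucleotide excision genes 6 rose and 6 fell. Rpa2, a subunit of the single-strand binding protein, rose by 0.63 ± 0.098, and the TFIIH subunit Gtf2h2 fell by 0.54 (SE 0.090). Of 4 further genes of deoxynucleotide supply 2 rose and 1 fell, with Rrm2, the S-phase ribonucleotide reductase subunit, at 1.28 ± 0.154, while Rrm2b was not called.

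For these 108 genes DCA alone called 0 in edgeR, where 0.309% of all genes were called. At an unadjusted p below 0.05 were 13 of them, where 11.9% of all genes passed. Combination against cisplatin called 12 as higher and 18 as lower, 27.8% in all, against 31.6% of all genes. Across all genes 18.1% were higher and 13.5% lower there. The interaction called 18, 16.7% against 18.6% of all genes, among them Polq (1.34), Nhej1 (1.00), Xrcc4 (0.80), Msh3 (0.74) and Rrm2 (-1.03). Calls of single genes among these 108 were not checked under the alternative settings.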

How the data were processed

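RNA-seq of 12 whole-kidney libraries was used from the deposited table of raw read counts per Ensembl gene. The submitters' processing notes name Trimmomatic, TopHat, Cufflinks, HTSeq, bedtools, DESeq and mm10, with no roles, and no source used here gives the counting mode. The normalised table was not used. Of 28991 identifiers, 27955 matched GENCODE M21 (GRCm38). The members and lists were chosen with earlier results of these data known.

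Genes were filtered with filterByExpr, scaled by TMM and fitted in edgeR 4.0.16 (R 4.3.3) with a mean per group over all 12 libraries, leaving 8 residual degrees of freedom. glmQLFTest p-values are two-sided, with Benjamini-Hochberg adjustment over 20370 genes. Values per library are given for genes called with an absolute log2 change of at least 1 in any comparison, or called in the interaction or in combination against cisplatin, and further repair genes by up to 4 of the largest changes per list. RPKM used union exon lengths. Labels number the mice but do not say that numbers pair them, and no batch is labelled. No library was a duplicate of another by a chi-square test of counts within groups, the statistic being 4.4 to 26.3 per degree of freedom. The script was tested on simulated counts. DESeq2 1.42.0, other scalings, filters and sample sets were alternatives.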

Additional observations from a re-analysis of the deposited data

Results flagged for a closer look

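For 13 repair genes the response to cisplatin differed between mice with and without DCA by edgeR's test of the interaction, (combination minus DCA) minus (cisplatin minus saline), on the log2 scale. The values were negative for Brca1 (-1.665), Ercc1 (-0.588), Apex1 (-0.496), Msh6 (-0.492), Mad2l2 (-0.294), Rad23b (-0.282), Rrm2b (-0.251) and Ercc5 (-0.248). They were positive for Mgmt (1.671), Atm (0.882), Chek2 (0.631), Fancl (0.589) and Ddb2 (0.344). Rrm2b and Chek2 were not called in cisplatin against saline kidneys, whereas the other genes of this group were. The calls of Ddb2, Ercc5, Mad2l2, Chek2 and Rrm2b were lost in 13, 13, 12, 10 and 6 of 20 alternative settings.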

How the results depend on the processing

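Of the called repair genes, 20 of 28 in cisplatin against saline, 10 of 14 in combination against cisplatin, 16 of 21 in combination against DCA, 13 of 18 in combination against saline and 6 of 13 in the interaction kept their call under all alternatives run. Leaving out each library in turn gave counts of 26 to 29, 12 to 16, 17 to 22, 14 to 21 and 8 to 13 in that order, and 0 throughout for DCA against saline. The interaction count was 8 without saline replicate 2, 8 without cisplatin replicate 2 and 8 without combination replicate 1. It was 13 without saline replicate 3, and 6 at an adjusted p below 0.01. DESeq2 called 27, 0, 14, 18, 17 and 13 of the repair genes in cisplatin against saline, DCA against saline, combination against cisplatin, against DCA, against saline and the interaction, and 3 values had no adjusted p there. With library totals as the only scaling 5 values changed sign: cisplatin against saline for Pms2 (0.267), Rrm2b (0.172) and Parp1 (0.032), and Parp1 in combination against DCA (0.141) and against saline (0.127).

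Over all genes, DCA against saline called 63 genes, but 336 with DESeq2, 134 with library totals, 119 with no filter, 117 with the replicate block and 15 with only these groups in the fit, and between 15 and 126 when a library was left out. At an adjusted p below 0.01 the interaction called 1839 genes in place of 3783, combination against cisplatin 4153 in place of 6441, combination against saline 5450 in place of 8189 and DCA against saline 13.

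Whether the replicate numbers pair the samples is not known. Same-numbered libraries of different groups had residual correlations from -0.109 to 0.252, with a median of 0.019. For differently numbered libraries they ran from -0.321 to 0.265, with a median of -0.034. Of 12 libraries, 6 correlated best with one of their own number. With the replicate block, 28, 0, 15, 22, 17 and 12 repair genes were called in the order of the DESeq2 counts. A fit of only the groups compared has no value for the interaction, which needs all groups. Depth limits genes with few reads, such as Brca1, Fancd2 and Mgmt with at most 157, 77 and 233 reads in a library.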
